A study of Homo sapiens with 36 samples.

Results

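The data described here come from 6 of the 36 RNA-seq libraries of a study of glucose deprivation in A549 cells, an established human lung adenocarcinoma line. They are the libraries of cells transfected with siRNA against ATF6 (siATF6, 100 nM) and kept for 6 h either in medium without glucose (0 mM, 3 replicates) or in medium with 25 mM glucose (3 replicates). They were chosen by those labels, with earlier results of these data known, and many results below leave out replicate 2. Both media held 10% dialysed serum and 2 mM glutamine and no pyruvate. Values are set beside those of cells given a non-targeting siRNA (siControl) in 0 and 25 mM glucose at 6 h, and of siATF6 cells in 0 and 25 mM glucose at 16 h, with 3 replicates in each group. All groups come from a single cell line under transient transfection, and the knockdown left some ATF6 mRNA. The titles call the replicates biological without naming days or passages, so p-values measure the spread between libraries. The tests estimated that spread also from the other groups of the study. These were cells given siRNA against ATF4 (siATF4) at 6 and 16 h and siControl cells at 16 h, each in 0 and 25 mM glucose.

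The libraries were poly(A)-selected, not stranded and read in pairs of 150 bases. The 6 libraries held 39.4 to 78.7 M counts each and 16373 to 17718 genes with at least 10 counts. Levels are given as CPM, the count of a gene per M counts of the library's effective size. All 10 epithelial and A549 markers were at 5 CPM or more, with a summed level of 12973 to 14464 CPM in 0 mM and 10928 to 12505 CPM in 25 mM. Of 16 markers of leukocytes, endothelium, fibroblasts, hepatocytes and neurons, 11 stayed under 1 CPM and 3 (COL1A1, CD68 and SNAP25) reached 5 CPM, and the list summed to 38.2 to 69.5 CPM in 0 mM and 35.1 to 66.5 CPM in 25 mM. In bulk RNA, fewer cells of a kind and less RNA per cell cannot be told apart.

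Replicate 2 went against its glucose labels, and this touches every result below. Across 11092 genes at 5 CPM or more, the log2 ratios of 0 mM to 25 mM libraries correlated between replicates 1 and 3 (Pearson r 0.69 across genes), but inversely between replicates 1 and 2 (r = -0.774) and between replicates 2 and 3 (r = -0.615). Genes are not independent replicates, and these coefficients only describe the libraries. Replicate 2 of the siControl libraries at 6 h ran the same way. No library was relabelled. The counts of calls and the leading lists and genes are given with all replicates and without replicate 2, and the p-values of the second kind depend on a choice made from the quantity that they test.

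Glucose feeds glycolysis, and through the hexosamine pathway it also supplies the sugars that are attached to proteins in the endoplasmic reticulum (ER). When folding in the ER fails, 3 membrane sensors respond: ATF6 is cut and becomes a transcription factor, IRE1 (ERN1) splices the mRNA of the transcription factor XBP1, and PERK (EIF2AK3) phosphorylates a translation factor, which favours translation of ATF4. ATF6 and XBP1 are known to raise ER chaperones and the degradation machinery through promoter elements called ERSE and ERSE-II, while ATF4 raises stress regulators and amino acid genes through C/EBP-ATF response elements (CARE).

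These elements can be read directly in promoters of genes that the results turn on. The windows run from 250 bases before to 50 bases after the RefSeq start (GRCh38.p14), 5′ to 3′ on the strand of the gene, and capitals mark the matches. HSPA5 (chr9:125241294-125241593, minus strand), FICD (chr12:108515027-108515326, plus strand) and CRELD2 (chr22:49918384-49918683, plus strand) are shown for ERSE, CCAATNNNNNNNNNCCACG. HERPUD1 (chr16:56931892-56932191, plus strand) and HYOU1 (chr11:119057156-119057455, minus strand) are shown for ERSE-II, ATTGGNCCACG, and HERPUD1 also holds a CARE, TGATGNAA. ATF3 (chr1:212565157-212565456, plus strand) and CHAC1 (chr15:40953221-40953520, plus strand) are shown for CARE and did not pass the test at 6 h. Both strands were searched, and a match on the minus strand appears as the reverse complement.
HSPA5: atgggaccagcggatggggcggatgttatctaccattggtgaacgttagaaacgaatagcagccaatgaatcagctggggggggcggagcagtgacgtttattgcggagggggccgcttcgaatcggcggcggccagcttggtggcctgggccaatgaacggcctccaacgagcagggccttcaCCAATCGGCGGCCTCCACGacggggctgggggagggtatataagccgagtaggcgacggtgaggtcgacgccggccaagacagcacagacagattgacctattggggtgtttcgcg
FICD: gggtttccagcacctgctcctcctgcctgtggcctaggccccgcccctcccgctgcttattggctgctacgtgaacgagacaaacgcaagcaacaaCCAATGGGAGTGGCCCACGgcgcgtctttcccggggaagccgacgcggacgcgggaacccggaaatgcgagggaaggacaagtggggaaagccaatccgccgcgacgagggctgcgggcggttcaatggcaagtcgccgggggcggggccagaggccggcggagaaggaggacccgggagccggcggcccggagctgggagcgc
CRELD2: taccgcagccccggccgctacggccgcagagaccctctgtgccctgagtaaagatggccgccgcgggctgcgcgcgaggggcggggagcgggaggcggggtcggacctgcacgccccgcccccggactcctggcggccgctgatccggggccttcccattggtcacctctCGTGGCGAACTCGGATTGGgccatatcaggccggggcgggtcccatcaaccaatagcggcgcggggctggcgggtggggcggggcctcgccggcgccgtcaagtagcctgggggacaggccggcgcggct
HERPUD1: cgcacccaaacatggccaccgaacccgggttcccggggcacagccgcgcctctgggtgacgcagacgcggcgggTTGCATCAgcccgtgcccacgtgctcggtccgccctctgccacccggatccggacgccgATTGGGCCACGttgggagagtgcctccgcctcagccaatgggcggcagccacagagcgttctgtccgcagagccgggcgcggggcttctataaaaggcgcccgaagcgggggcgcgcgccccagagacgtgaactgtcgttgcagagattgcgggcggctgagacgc
HYOU1: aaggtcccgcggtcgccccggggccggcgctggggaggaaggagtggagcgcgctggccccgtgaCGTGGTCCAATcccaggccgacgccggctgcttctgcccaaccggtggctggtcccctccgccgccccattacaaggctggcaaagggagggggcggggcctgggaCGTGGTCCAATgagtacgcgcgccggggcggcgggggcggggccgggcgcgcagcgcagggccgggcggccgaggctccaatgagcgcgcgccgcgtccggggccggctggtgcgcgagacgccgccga
ATF3: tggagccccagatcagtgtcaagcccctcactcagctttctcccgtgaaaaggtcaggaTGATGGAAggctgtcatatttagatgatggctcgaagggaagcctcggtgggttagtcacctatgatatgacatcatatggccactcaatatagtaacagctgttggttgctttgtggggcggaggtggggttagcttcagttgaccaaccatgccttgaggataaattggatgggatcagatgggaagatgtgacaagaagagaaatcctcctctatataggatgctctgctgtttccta
CHAC1: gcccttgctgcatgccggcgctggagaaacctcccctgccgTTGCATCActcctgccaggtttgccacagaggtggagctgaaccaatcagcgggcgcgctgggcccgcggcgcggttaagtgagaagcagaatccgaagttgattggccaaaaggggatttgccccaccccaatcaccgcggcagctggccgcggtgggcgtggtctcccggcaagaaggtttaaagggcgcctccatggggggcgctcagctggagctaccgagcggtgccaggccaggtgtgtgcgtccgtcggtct

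The ERSE of HSPA5 spans positions -66 to -48 from the start and that of FICD -154 to -136. The ERSE-II of HERPUD1 spans -117 to -107, and HYOU1 holds an ERSE-II at -185 to -175 and at -79 to -69. No match overlapped another. Of the 27305 promoters in the RefSeq table, 22 (0.0806%) hold an ERSE and 15 (0.0549%) an ERSE-II. Promoters were found for 91 of the 116 genes that rose without replicate 2 (below). Of these, 6 hold an ERSE (6.59%: ALG12, CALR, CRELD2, FICD, HSPA5 and SERP1), 3 hold an ERSE-II (3.3%: HERPUD1, HYOU1 and SDF2L1) and 3 hold a CARE (3.3%: HERPUD1, SNAPC3 and SRPRB), beside 1003 of all promoters (3.67%) for CARE. Of the 12240 promoters of all genes tested, 17 hold an ERSE (0.139%), 11 an ERSE-II (0.0899%) and 224 a CARE (1.83%). Among 84 promoters of genes that fell, no match to the ERSE, ERSE-II or CARE letters was found in these windows. A CARE was also found in 5 of 19 promoters of the stress regulators listed below (26.3%: ATF3, CHAC1, FGF21, KLHDC7B and PPP1R15B). None of these 5 genes passed at 6 h. An ERSE also stood in the promoters of HSP90B1, CANX, ERO1B and XBP1, which did not pass. The promoters of MANF, DNAJB9, SYVN1, EIF2AK3 and DDIT3, which rose, held no match. A match is a description of letters and does not show binding.

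The knockdown was visible in every library. ATF6 (chr1:161766320-161964070, plus strand, GRCh38) was at 17.9, 6.09 and 12.8 CPM in 0 mM libraries (replicates 1, 2 and 3), against 13.9, 8.31 and 11.5 CPM in 25 mM libraries. The 6 siATF6 libraries at 6 h lay between 6.09 and 17.9 CPM and the 6 siControl libraries at 6 h between 43.0 and 63.0 CPM, without overlap. ATF6 did not differ detectably with glucose (log2 fold change 0.27 ± 0.21 SE without replicate 2, adjusted p = 0.823). ATF4 mRNA was at 499, 333 and 455 CPM in 0 mM and at 439, 441 and 366 CPM in 25 mM (0.25 ± 0.24, adjusted p = 0.917).

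With all 3 replicates, no gene passed. edgeR's quasi-likelihood test with Benjamini-Hochberg adjustment called 0 of 19030 genes at 0.05 (0%), 173 (0.909%) had an unadjusted p under 0.05, and DESeq2 called 2 genes, both higher in 0 mM. HSPA5, which encodes the ER chaperone BiP, shows the overlap of the groups: it was at 4037, 731 and 2805 CPM in 0 mM, against 1197, 2027 and 919 CPM in 25 mM. Replicate 2 held the lowest 0 mM value and the highest 25 mM value. The fitted log2 fold change of HSPA5 with all replicates was 0.87 (unadjusted p = 0.127).

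The fitted values with all replicates were nearer 0 than those without replicate 2 for the genes given here and for most of the lists. Among ER genes, the log2 fold change with all replicates was 1.06 ± 0.71 (SE) for FICD, 0.93 ± 0.75 for HERPUD1, 0.89 ± 0.55 for MANF, 0.69 ± 0.43 for SYVN1 and 0.63 ± 0.42 for EIF2AK3. For DDIT3 it was 1.22 ± 0.96, for GFPT1 0.47 ± 0.37, for OGA -0.73 ± 0.46, for DGAT2 -0.42 ± 0.65 and for E2F2 -0.38 ± 0.35. Each of these had an adjusted p of 1. The list medians with all replicates were 0.47 for ER chaperones, 0.15 for ER-associated degradation, 0.21 for translocation and transport, 0.03 for stress regulators, 0.13 for the hexosamine pathway, -0.06 for S phase and -0.10 for G2 and mitosis, with 0 members called in any of the 31 lists. Glycolysis genes had a median of 0.07 with all replicates and -0.08 without replicate 2.

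Without replicate 2, 11 of 20 ER chaperones and folding enzymes rose in cells without glucose, and genes such as OGA, DGAT2 and TMEM165 fell. Of 18935 genes tested, 116 rose (0.613%) and 109 fell (0.576%), 225 in all (1.19%), and the median log2 fold change over all genes was -0.01. The rising genes comprise 101 protein-coding genes and 11 lncRNAs, and AKAP17A is counted under an entry on X and one on Y. The count rests on which libraries estimate the spread. It was 0 with replicate 2 of siControl kept in the fit, 0 with the library of very low depth (siATF4, 0 mM, 6 h, replicate 3) included, and 18 with only the 4 siATF6 libraries. Leaving out 1 more library gave 29 calls without 0 mM replicate 1, 94 without 0 mM replicate 3, 72 without 25 mM replicate 1 and 24 without 25 mM replicate 3. Of the 225 genes, 10 that rose and 8 that fell were called in all 4 of these fits.

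**Figure D1:**
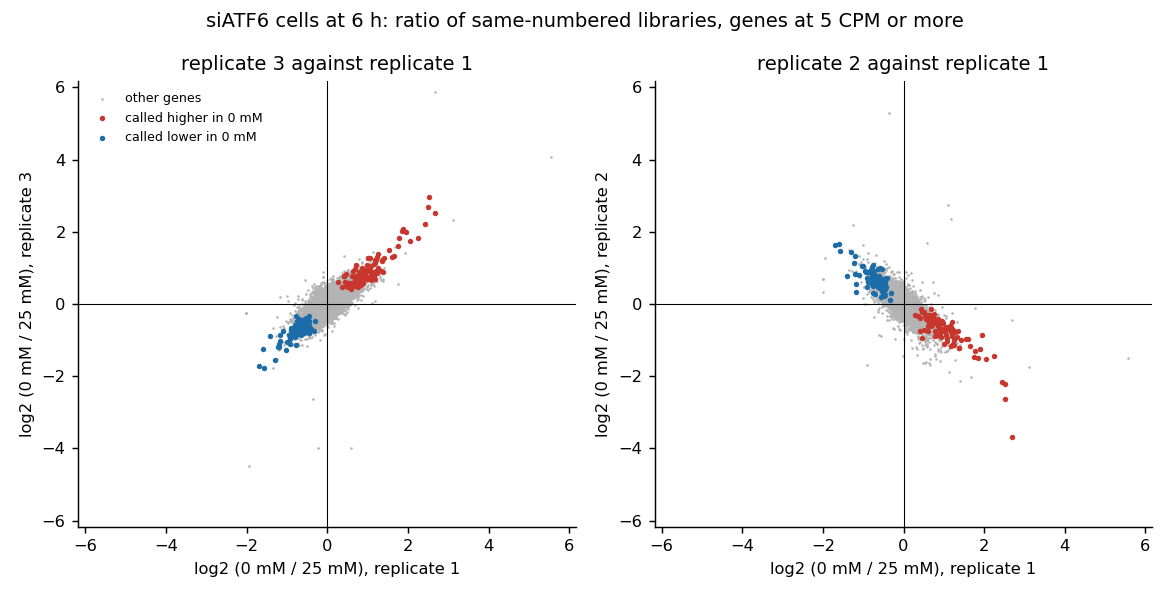
Each point is a gene at 5 CPM or more: the log2 ratio of 0 mM to 25 mM libraries in replicate 1 (x axis) against that in replicate 3 (left) or replicate 2 (right), with genes called higher (red) or lower (blue) without replicate 2. The cloud runs upward for replicate 3 and downward for replicate 2 (r = 0.69 and -0.774).

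The genes called from replicates 1 and 3 showed the opposite order in replicate 2. All 116 genes that rose had a negative log2 ratio there, with a median of -0.69, where the medians of replicates 1 and 3, which chose the genes, were 0.94 and 0.87. Of the 109 genes that fell, 108 had a positive ratio in replicate 2, with a median of 0.72, against -0.77 and -0.75 in replicates 1 and 3. The library labelled 0 mM replicate 2 lay nearer to the 25 mM mean of replicates 1 and 3 for 115 of the 116 rising genes and 104 of the 109 falling genes. The library labelled 25 mM replicate 2 lay nearer to the 0 mM mean for 98 and 90 of them. Replicate 2 was left out for running against its labels, so these counts describe that choice and are no separate evidence. Over all 18935 genes tested, 9702 had a positive and 9138 a negative ratio in replicate 2. The size of the reversal differed between lists. Stress regulators downstream of ATF4 had a median of -1.07 in replicate 2, against 0.44 and 0.43 in replicates 1 and 3. For the hexosamine pathway the median was -0.23 in replicate 2, against 0.29 and 0.26. DDIT3, which encodes the stress regulator CHOP, was at 8.07 CPM in the library labelled 0 mM replicate 2, lower than in any 25 mM library, and TRIB3, a pseudokinase downstream of ATF4, at 159 CPM there, against 424 to 515 CPM in the 25 mM libraries.

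Of the 31 lists, that of ER chaperones and folding enzymes held the most rising genes, 11 of the 116. Of the 20 members tested, 11 rose and 0 fell, where 0.613% of all genes tested rose, and the median log2 fold change was 1.02 beside -0.01 over all genes. The list was written with earlier results of these data known and is no independent evidence. Its medians by replicate were 1.04, -0.67 and 0.96 for replicates 1, 2 and 3. With only the 4 siATF6 libraries in the fit, HSPA5 (adjusted p = 0.0704), HYOU1 (0.0577), MANF (0.0876) and CRELD2 (0.235) did not pass. The same held for SDF2L1 (0.276), DNAJB9 (0.213) and DNAJB11 (0.0554). The count of 11 became 3 without 0 mM replicate 1, 11 without 0 mM replicate 3, 9 without 25 mM replicate 1 and 1 without 25 mM replicate 3.

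FICD (chr12:108515277-108525837, plus strand), the enzyme that attaches AMP to BiP and removes it, is not in that list. Among rising genes of at least 5 CPM it had the largest fitted change of those named. With only the 4 siATF6 libraries in the fit it did not pass (adjusted p = 0.191). Its level was 73.2, 9.37 and 50.3 CPM in 0 mM, against 12.4, 45.3 and 5.99 CPM in 25 mM. In replicates 1 and 3 the 0 mM libraries were the higher, in replicate 2 the 25 mM library. The log2 fold change without replicate 2 was 2.74 ± 0.40 (adjusted p = 0.000712, and 0.0533 without 25 mM replicate 3). HSPA5 rose by 1.69 ± 0.28 on the log2 scale (adjusted p = 0.00219, but 0.0805 without 0 mM replicate 1 and 0.092 without 25 mM replicate 3). The co-chaperone DNAJB9, which works with BiP, was at 155, 15.2 and 93.3 CPM in 0 mM, against 26.8, 97.7 and 14.1 CPM in 25 mM (2.60 ± 0.48, adjusted p = 0.00589, but 0.121 without 0 mM replicate 1 and 0.168 without 25 mM replicate 3).

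HYOU1, a nucleotide exchange factor of BiP, was at 418, 102 and 311 CPM in 0 mM, against 121, 254 and 88 CPM in 25 mM (1.80 ± 0.27, adjusted p = 0.000716, and 0.0577 without 25 mM replicate 3). MANF, a secreted factor retained in the ER until stress, was at 122, 25.7 and 90.7 CPM in 0 mM, against 33.6, 73.9 and 21.9 CPM in 25 mM (1.94 ± 0.26, adjusted p = 0.000364). With only the 4 siATF6 libraries in the fit, MANF did not pass (adjusted p = 0.0876). CRELD2, an ER-resident folding factor, rose by 1.99 ± 0.29 (adjusted p = 0.000712, and 0.0533 without 25 mM replicate 3), and SDF2L1, a partner of ER co-chaperones, by 1.99 ± 0.34 (adjusted p = 0.00308, but 0.114 without 0 mM replicate 1 and 0.12 without 25 mM replicate 3). The other risers of the list were DNAJC3 (1.48), DNAJB11 (1.17), the lectin chaperone CALR (1.15) and the disulfide isomerases PDIA4 (1.14) and PDIA6 (0.59). HSP90B1, the ER member of the HSP90 family, missed the threshold at 0.89 ± 0.23 (adjusted p = 0.0523), as did PDIA3 at 0.73 ± 0.19 (adjusted p = 0.0518).

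**Figure D2:**
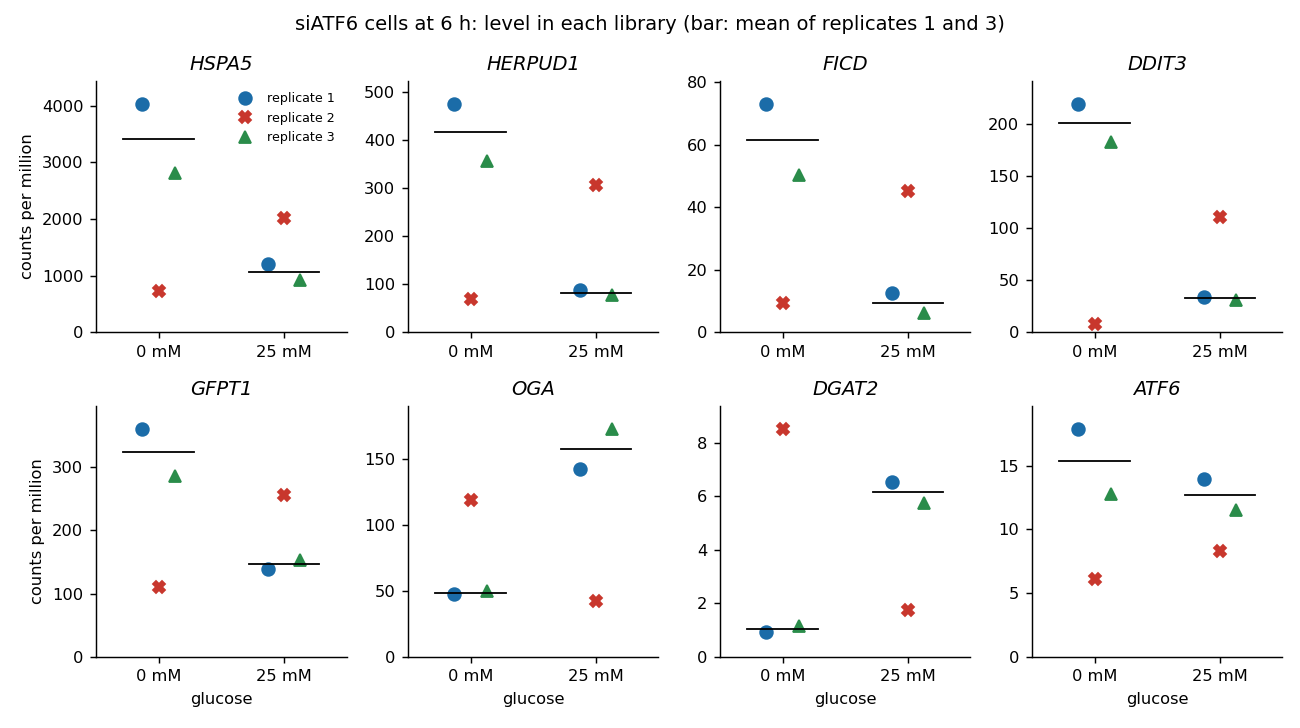
CPM (y axis, linear from 0) of 8 genes in the 3 libraries in 0 mM (left) and the 3 in 25 mM (right), with a symbol for each replicate and a bar at the mean of replicates 1 and 3. Replicate 2 (cross) runs opposite to replicates 1 and 3 in every panel, ATF6 included, where glucose made no detectable difference. HSPA5 reads 4037, 731 and 2805 CPM in 0 mM and 1197, 2027 and 919 CPM in 25 mM.

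ER-associated degradation, which returns misfolded proteins to the cytosol, had 4 risers and 0 fallers among 19 members, with a median of 0.25. Over all genes tested, 0.613% rose. HERPUD1 (chr16:56932142-56944864, plus strand), a membrane protein of the degradation complex, was at 476, 68.4 and 358 CPM in 0 mM, against 87.9, 308 and 77.3 CPM in 25 mM. Its log2 fold change was 2.34 ± 0.25 (adjusted p = 1.82e-05), and the call held in each fit that left out a further library, with adjusted p up to 0.0039. SYVN1, the ubiquitin ligase of the same complex, was at 167, 67.0 and 162 CPM in 0 mM, against 57.0, 132 and 57.1 CPM in 25 mM (1.53 ± 0.17, adjusted p = 1.82e-05). Its call held in the same 4 fits. The selenoproteins SELENOK (1.16) and SELENOS (0.84) also rose, each called in 1 of the 4 fits.

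Translocation into the ER and transport out of it had 5 risers and 0 fallers among 26 members, where 0.613% of all genes tested rose. All 26 fitted values were positive (median 0.39), beside 9136 of all 18935 genes. In replicate 2, 1 of the 26 log2 ratios was positive. SEC24D, a cargo adaptor of the COPII coat, was at 115, 23.2 and 84.6 CPM in 0 mM, against 27.6, 67.8 and 24.8 CPM in 25 mM (1.93 ± 0.30, adjusted p = 0.00102, and 0.0566 without 25 mM replicate 3). The translocon subunit SEC61A1 (0.82), the translocon-associated SSR1 (0.98) and SSR3 (0.77) and the COPII subunit SEC23B (0.70) rose by less. The count of 5 was 1 without 0 mM replicate 1, 3 without 0 mM replicate 3, 2 without 25 mM replicate 1 and 0 without 25 mM replicate 3.

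Of 10 genes of the sensors and their transcription factors, 1 rose. EIF2AK3 (PERK) was at 62.9, 20.9 and 52.1 CPM in 0 mM, against 19.8, 47.6 and 20.6 CPM in 25 mM (1.51 ± 0.23, adjusted p = 0.000848), and was called in all 4 fits that left out a further library. ERN1 (IRE1) was at 102, 24.8 and 67.6 CPM in 0 mM and 49.8, 63.3 and 39.0 CPM in 25 mM (0.93 ± 0.43, adjusted p = 0.46). Total XBP1 mRNA, which does not distinguish the spliced form, gave 0.23 ± 0.23 (adjusted p = 0.92).

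Stress regulators downstream of ATF4 were mostly positive but rarely passed. Of 22 members, 1 rose and 0 fell, and the median was 0.40. Fitted values were positive for 18 of the 22, beside 9136 of all 18935 genes. DDIT3 (chr12:57516588-57521737, minus strand) was at 219, 8.07 and 183 CPM in 0 mM, against 33.8, 111 and 31.3 CPM in 25 mM (2.63 ± 0.39, adjusted p = 0.000712, and 0.0514 without 25 mM replicate 3). As the libraries carry no strand and 31.6% of the exon bases of DDIT3 overlap a gene on the other strand, its reads are not fully its own. PPP1R15A, the phosphatase subunit that reverses PERK signalling, was at 403, 52.6 and 269 CPM in 0 mM and 125, 215 and 90.3 CPM in 25 mM (1.64 ± 0.45, adjusted p = 0.0796). ATF3 gave 1.21 ± 0.36 (adjusted p = 0.112) and TRIB3 0.76 ± 0.38 (adjusted p = 0.534). No gene passed among 16 enzymes that make amino acids or one-carbon units (median 0.09), 11 transporters of amino acids (0.10) and 20 synthetases that charge tRNAs (0.15). ASNS, asparagine synthetase, was at 257, 141 and 229 CPM in 0 mM and 214, 238 and 227 CPM in 25 mM (0.14 ± 0.29).

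**Figure D3:**
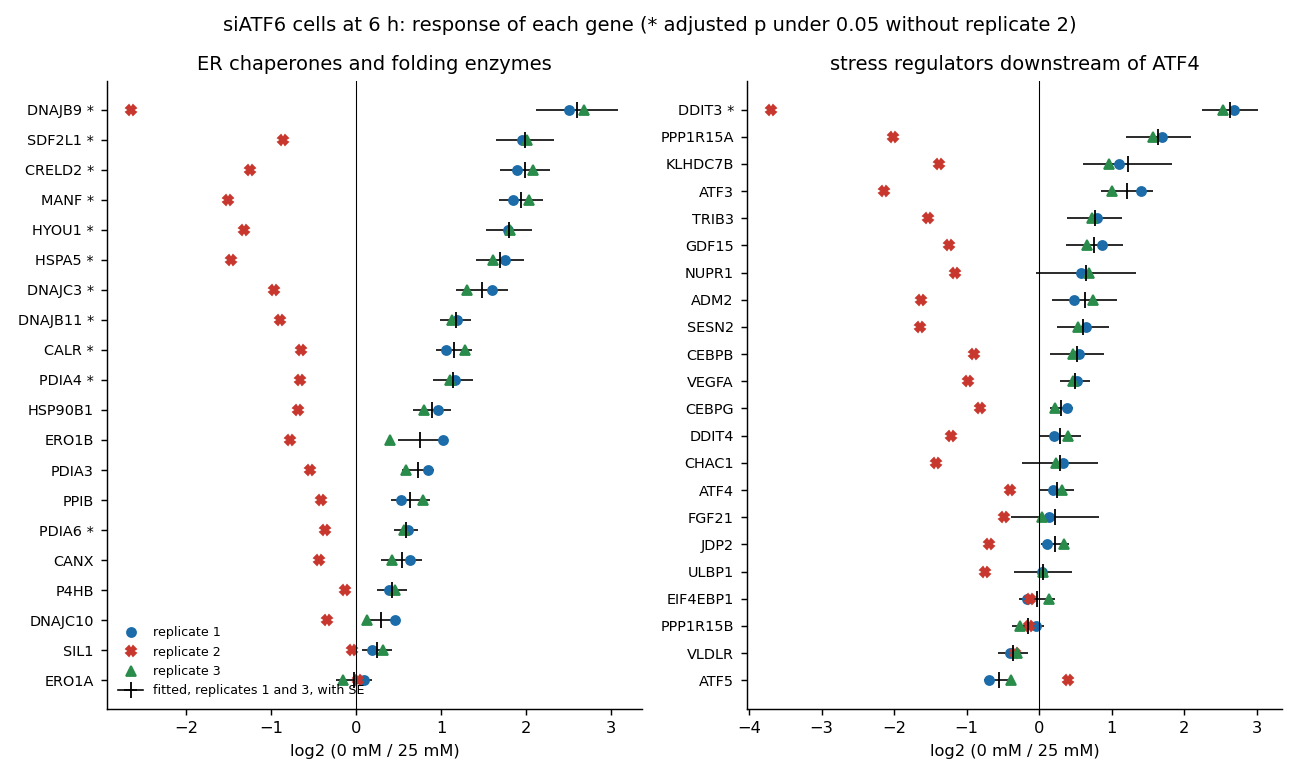
Log2 ratio of 0 mM to 25 mM (x axis) for each of the 20 ER chaperones (left) and 22 stress regulators (right), by replicate (symbols) and as fitted without replicate 2 (tick with SE); a star marks an adjusted p under 0.05. Replicates 1 and 3 lie together to the right for most genes and replicate 2 to the left, and 11 chaperones but 1 stress regulator carry a star.

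In the hexosamine pathway, GFPT1 rose and OGA fell, and the other 8 members did not pass. GFPT1, the first and rate-limiting enzyme, was at 361, 110 and 286 CPM in 0 mM, against 139, 255 and 154 CPM in 25 mM (1.15 ± 0.20, adjusted p = 0.00392). The GFPT1 call was lost without 0 mM replicate 1 (adjusted p = 0.118), without 25 mM replicate 1 (0.0786) and without 25 mM replicate 3 (0.0577). OGA (chr10:101784443-101818465, minus strand), which removes N-acetylglucosamine from cytosolic and nuclear proteins, was at 47.6, 119 and 49.9 CPM in 0 mM, against 143, 42.5 and 173 CPM in 25 mM (-1.70 ± 0.18, adjusted p = 1.82e-05). The OGA call held in each fit that left out a further library, with adjusted p up to 0.0041. OGT, which attaches the same sugar, was at 177, 149 and 197 CPM in 0 mM and 130, 191 and 194 CPM in 25 mM (0.20 ± 0.26, adjusted p = 0.971).

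Further risers with roles in glycosylation were picked after their values were seen, so they carry no weight as a group. GMPPB, a subunit of the enzyme that makes GDP-mannose, was at 84.7, 40.8 and 69.1 CPM in 0 mM, against 36.6, 57.5 and 29.6 CPM in 25 mM (1.22 ± 0.17, adjusted p = 0.000364). Its partner GMPPA (0.79), the mannosyltransferase ALG12 (0.71) and DHDDS (0.50), a subunit of the enzyme that makes the dolichol chain, also passed. Genes of Golgi structure, picked in the same way, were GOLGA2 (0.69), GOLGA5 (0.71) and GORASP2 (0.56). How these calls depend on single libraries is not given here. TMEM165, also needed for glycosylation, went the other way (-1.21, below).

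Among the genes that fell, DGAT2, which catalyses the last step of triglyceride synthesis, had the largest fitted change of those named at 5 CPM or more. It was at 0.927, 8.53 and 1.15 CPM in 0 mM, against 6.53, 1.75 and 5.75 CPM in 25 mM (-2.57 ± 0.36, adjusted p = 0.000462). TMEM165, a Golgi transporter needed for glycosylation, was at 29, 65.6 and 27.2 CPM in 0 mM, against 67.3, 36.8 and 62.6 CPM in 25 mM (-1.21 ± 0.18, adjusted p = 0.000712). DGAT2, TMEM165, LRFN1 (-1.80), P2RY11 (-1.94) and OGA were called in all 4 fits that left out a further library. Reads of P2RY11, a purinergic receptor, are uncertain, since 54.2% of its exon bases lie in a read-through gene on the same strand. The named genes that also fell were TMEM121 (-1.56), the Notch feedback inhibitor NRARP (-1.53), RIMS3 (-1.40), the homeobox gene IRX5 (-1.32), PAQR4 (-1.22), E2F2 (-1.20) and the Polycomb gene CBX2 (-1.18). TMEM121, NRARP and IRX5 were called in 0 of those 4 fits, with adjusted p up to 0.193, 0.186 and 0.182, and 41.5% of PAQR4 exon bases overlap a gene on the other strand. Without 0 mM replicate 1 the calls of PAQR4 (adjusted p = 0.0808), CBX2 (0.114) and RIMS3 (0.117) were lost, and without 25 mM replicate 3 those of CBX2 (0.0577) and RIMS3 (0.052). Of the rising genes named by size, MSTO2P (2.31) is a pseudogene close in sequence to MSTO1 (0.93), and EML2-AS1 (1.68) shares 95.0% of its exon bases with the other strand, so their own levels are uncertain. The EML2-AS1 call was lost without 0 mM replicate 1 (adjusted p = 0.224) and without 25 mM replicate 3 (0.178), and that of MSTO2P held in all 4 fits.

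Targets and factors of MondoA, a glucose-sensing transcription factor, were low or little changed. TXNIP, its best-known target, was at 0.0154, 0.812 and 0.0674 CPM in 0 mM and 0.87, 0.0536 and 0.517 CPM in 25 mM, under 1 CPM throughout. It fell by 4.11 on the log2 scale (SE 0.96, adjusted p = 0.0313), and was called in 0 of the 4 fits that left out a further library, with adjusted p up to 0.47. The other 8 members did not pass, among them ARRDC4 (-1.10 ± 0.40, adjusted p = 0.257). None of 22 genes of glucose transport and glycolysis passed, with a median of -0.08. The glucose transporter SLC2A1 was at 256, 184 and 342 CPM in 0 mM and 200, 238 and 238 CPM in 25 mM (0.45 ± 0.22).

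Of 24 genes of S phase and DNA replication, 3 fell and 0 rose, where 0.576% of all genes tested fell, and the median was -0.36. The count of 3 was 1 without 0 mM replicate 3 or 25 mM replicate 1, and 0 without 0 mM replicate 1 or 25 mM replicate 3. E2F2, a transcription factor of the cell cycle, was at 9.05, 22.2 and 9.10 CPM in 0 mM, against 19.0, 10.5 and 22.8 CPM in 25 mM (-1.20 ± 0.21, adjusted p = 0.00336, but 0.0834 without 0 mM replicate 1 and 0.0893 without 25 mM replicate 3). GINS1 (-0.72 ± 0.17, adjusted p = 0.0285), of the replication helicase, and the ribonucleotide reductase subunit RRM2 (-0.54 ± 0.13, adjusted p = 0.047) were called in 0 of the 4 fits that left out a further library. CDC6, the loading factor of that helicase, was the 1 positive member at 0.88 ± 0.31 (adjusted p = 0.207). All 22 genes of G2 and mitosis had negative fitted values (median -0.30), beside 9768 of all 18935 genes, and 0 passed. In replicate 2, 21 of the 22 log2 ratios were positive. In chemokines, cytokines and NF-kB genes 1 of 21 rose, LIF (0.64 ± 0.16, adjusted p = 0.0462), and it was called in 0 of the 4 fits. No member passed in the lists of immediate early genes (median 0.47), p53 targets (-0.07), cholesterol synthesis (0.16), fatty acid synthesis (0.04), NRF2 targets (-0.01), HIF targets (0.06) or cytosolic heat shock genes (-0.13). The same held for cytosolic ribosomal proteins (0.08), ribosome biogenesis (0.04), mitochondrial mRNAs (0.15), nuclear subunits of the respiratory chain (-0.0007), death receptors and BCL2 genes (-0.06), lysosome and autophagy genes (0.07), histones (-0.15), WNT and BMP feedback genes (-0.16), and the epithelial (0.19) and other cell type markers (0.06).

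The first question set by the siControl arm is whether the response at 6 h differed under the knockdown. Without replicate 2, 0 of 18935 genes had a response that differed between siATF6 and siControl (0%), 139 (0.734%) had an unadjusted p under 0.05, and DESeq2 called 1 gene. The comparison did not detect a difference, and with 2 replicates a group it does not show that the responses were equal. With replicate 2 kept, the count was also 0. The fit that called genes under siATF6 also left out replicate 2 of siControl, which ran against its glucose labels. With that replicate of siControl kept, 0 genes were called under siATF6. The signs of the called genes in the remaining siControl libraries are therefore no separate evidence, and the spread of those libraries entered the same fit. Of the 116 risers, 115 had a positive fitted value there, with a median of 0.99. All 109 fallers had a negative one, with a median of -0.83. In siControl replicate 2 these medians were -0.78 and 0.66.

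ER chaperones had smaller fitted responses under siATF6. The median log2 fold change of the 20 members was 1.02 in siATF6 cells and 1.42 in siControl cells, and the difference was negative for all 20, with a median of -0.52 beside -0.01 over all genes. No member passed. HERPUD1 differed by -0.98 (unadjusted p = 0.00804) and CRELD2 by -1.13 (unadjusted p = 0.00956), and both had adjusted p = 1. The median of the difference was -0.09 with replicate 2 kept, with 2 of 20 positive, and between -0.22 and -0.76 with a further library left out (-0.22 without siATF6 25 mM replicate 1, -0.26 without siATF6 0 mM replicate 3, -0.28 without siControl 25 mM replicate 3, -0.37 without siControl 0 mM replicate 1 and -0.76 without siATF6 0 mM replicate 1), with up to 4 members positive. ER-associated degradation had medians of 0.25 in siATF6 cells and 0.63 in siControl cells. The median of its difference was -0.26, but -0.07 with replicate 2 kept and -0.12 without siControl 0 mM replicate 1. The medians of translocation and transport (0.39 in siATF6, 0.46 in siControl) and of S phase (-0.36 in siATF6, -0.35 in siControl) lay closer together. Negative differences were not confined to ER genes. They were found in 19 of 22 stress regulators (median -0.17, but 0.03 without siControl 0 mM replicate 1). The same held for 14 of 16 amino acid synthesis enzymes (-0.14) and 9 of 11 amino acid transporters (-0.14), beside 9703 of all 18935 genes. FICD, which had 2.74 in siATF6 and 2.66 in siControl cells, OGA (-1.70 in siATF6, -1.73 in siControl) and DGAT2 (-2.57 in siATF6, -2.39 in siControl) had similar values, untested for likeness.

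**Figure D4:**
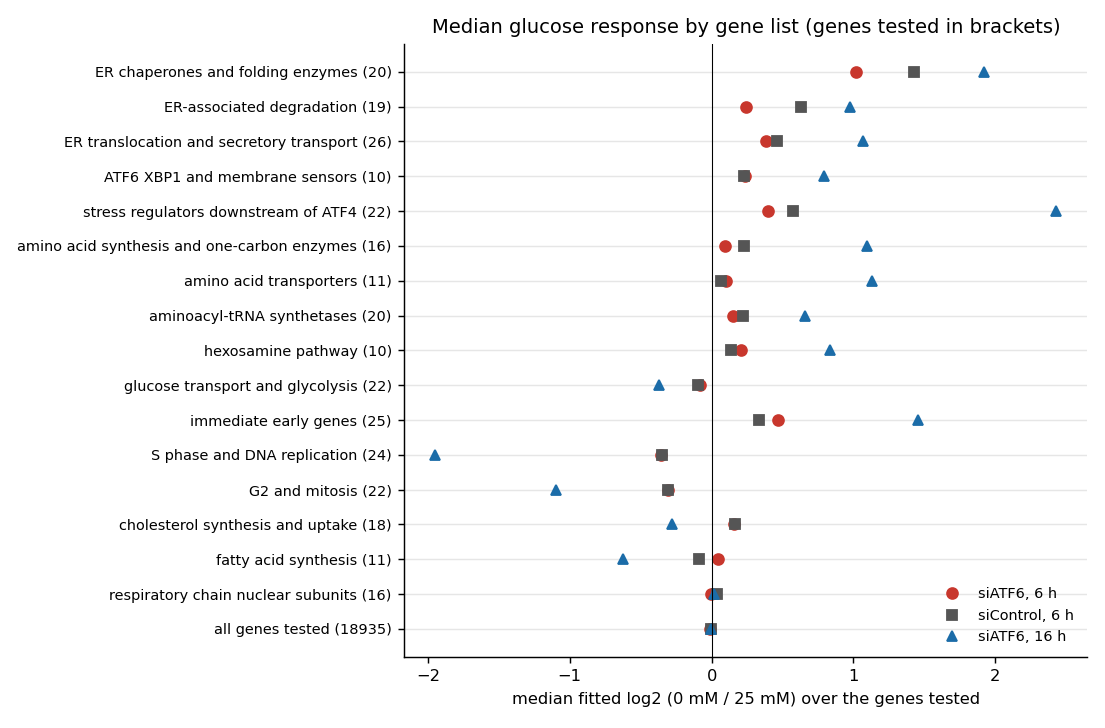
Median fitted log2 ratio of 0 mM to 25 mM (x axis) of 16 gene lists and of all genes, for siATF6 at 6 h and siControl at 6 h, both without replicate 2, and siATF6 at 16 h. ER chaperones stand at 1.02, 1.42 and 1.92, and stress regulators at 0.40, 0.57 and 2.43.

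The second question is how the response at 6 h differed from that at 16 h in siATF6 cells. The 6 h response, without replicate 2, differed from the 16 h response for 1417 of 18935 genes (7.48%), with a higher value at 6 h for 744 (3.93%) and a lower one for 673 (3.55%). The genes called at 6 h kept their direction at 16 h in nearly all cases. Of 116 risers, 115 were positive at 16 h (median 1.31), and 106 of 109 fallers were negative (median -0.94). The 16 h median over all genes was -0.0016. The size of the response often differed: 26 of the 116 risers were among the 1417 genes, 23 of them with the lower value at 6 h. Of the 109 fallers, 21 were among them, 17 with the higher value at 6 h. Leaving out a library gave 698 to 857 calls without one of the 6 h libraries (857 without 0 mM replicate 1, 698 without 0 mM replicate 3, 801 without 25 mM replicate 1 and 851 without 25 mM replicate 3). Including the library of very low depth gave 8, and keeping replicate 2 gave 2415.

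Stress regulators downstream of ATF4 differed in 18 of 22 members, all with the smaller value at 6 h, where the median response was 0.40, against 2.43 at 16 h. The separation lay mainly in the 25 mM libraries. ADM2, which encodes a peptide hormone, was at 20.8, 4.47 and 20.7 CPM in 0 mM at 6 h, against 14.7, 14.9 and 12.2 CPM in 25 mM at 6 h. At 16 h it was at 22.7, 22.8 and 22.1 CPM in 0 mM, against 0.42, 0.887 and 0.793 CPM in 25 mM. The difference of responses was -4.38 ± 0.62 (adjusted p = 0.000101). Without glucose, replicates 1 and 3 at 6 h lay just below the 16 h libraries, and with glucose every library was higher at 6 h. CHAC1, which degrades glutathione, was at 59.2, 21.8 and 46.5 CPM in 0 mM at 6 h, against 47.1, 59.2 and 39.7 CPM in 25 mM at 6 h. At 16 h CHAC1 was at 54.4, 33.2 and 41.0 CPM in 0 mM, against 1.74, 2.24 and 2.76 CPM in 25 mM. In 0 mM its ranges at 6 h and 16 h overlapped, and in 25 mM every library was higher at 6 h. In all 22 members the 25 mM level of replicates 1 and 3 at 6 h was above that at 16 h, with a median log2 difference of 1.42. In 0 mM the median was -0.09 and 9 of 22 were higher at 6 h. Over all genes these medians were -0.0044 in 25 mM and -0.01 in 0 mM. The count of 18 ran down to 12, which it reached without 0 mM replicate 3 and 12 without 25 mM replicate 1 at 6 h.

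Amino acid transporters showed a like pattern, with 11 of 11 members higher in 25 mM at 6 h than at 16 h (median 0.84) and 5 of 11 in 0 mM (median -0.03). Of 16 amino acid synthesis enzymes, 14 were higher in 25 mM at 6 h (median 0.73) and 6 in 0 mM (-0.21). ER chaperones differed the other way round. In 25 mM the median log2 difference of 6 h to 16 h was -0.04, with 6 of 20 higher at 6 h, while in 0 mM all 20 were lower at 6 h (median -0.96). For HSPA5 the 4037 and 2805 CPM of replicates 1 and 3 in 0 mM at 6 h stood against 7580 ± 299 CPM in 0 mM at 16 h (SD, n = 3). Of the 20 chaperones 11 differed between times, all with the smaller response at 6 h, and this count was 1 without 0 mM replicate 3 and 3 without 25 mM replicate 1 at 6 h, and 7 without 25 mM replicate 2 or replicate 3 at 16 h. The 9 chaperones whose difference did not pass included MANF (-0.32), SDF2L1 (-0.53), DNAJC3 (-0.51), and FICD, outside the list, did not pass either (-0.62).

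S phase genes differed in 21 of 24 members, all with the response nearer 0 at 6 h, and this count stayed between 20 and 22 with any library left out. The median response was -0.36 at 6 h, against -1.95 at 16 h. RRM2 was at 198, 253 and 170 CPM in 0 mM at 6 h and averaged 55.5 ± 2.8 CPM in 0 mM at 16 h (SD, n = 3). OGA stood apart from these patterns. Its response of -1.70 at 6 h had no counterpart at 16 h, when it averaged 103 ± 3.53 CPM in 0 mM and 99.5 ± 4.52 CPM in 25 mM (SD, n = 3 each; 0.05), and the 2 responses differed by -1.75 ± 0.23 (adjusted p = 4.7e-05). DGAT2 had -2.57 at 6 h and -2.34 at 16 h, and EIF2AK3 1.51 at 6 h and 1.40 at 16 h, and neither difference passed.

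**Figure D5:**
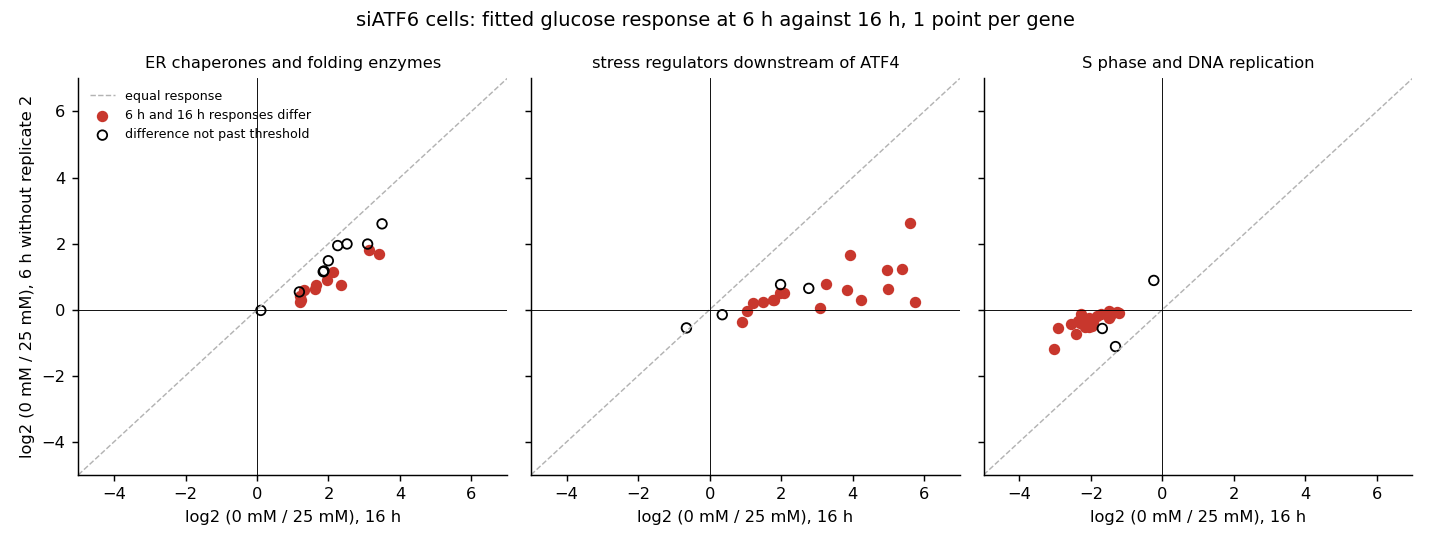
Fitted log2 response of each gene at 16 h (x axis) against that at 6 h without replicate 2 (y axis) in siATF6 cells, for ER chaperones, stress regulators and S phase genes; filled points mark genes whose responses differed, and the dashed line equal responses. Filled points number 11 of 20, 18 of 22 and 21 of 24, and they lie closer to 0 on the 6 h axis.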

How the data were processed

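Poly(A)-selected RNA of A549 cells was measured in 36 libraries, in 12 groups of 3. The authors' deposited table holds RSEM expected counts for 60662 gene IDs. The submitters' processing notes name fastp, STAR, RSEM and GRCh38. Their versions and the annotation release are not given in the sources used here. Expected counts were rounded to whole numbers, so fractions of shared reads remain in them. The 6 libraries held 39.4 to 78.7 M counts. Replicates of the same group differed by a mean chi-square of 92.3 to 175 per gene, where counting noise alone gives about 1. No library was thus a repeat of another in its own group. Libraries of different groups were not compared in this way.

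Genes were tested with edgeR 4.0.16 (R 4.3.3): filterByExpr (minimum count 10, minimum total 15), TMM factors, robust quasi-likelihood F tests, and Benjamini-Hochberg adjustment over all genes at 0.05. The fit of all replicates used 35 libraries, without siATF4, 0 mM, 6 h, replicate 3. The fits without replicate 2 used 31, also without replicate 2 of siControl and siATF6 at 6 h. Replicate 2 of siATF4 at 6 h stayed in these fits, and its direction is not described here. Each group had 1 mean and no covariate. DESeq2 1.42.0 was an alternative. CPM are counts over TMM-effective library sizes, and replicate ratios add 0.5 CPM. The scripts were tested on simulated counts. Promoter windows came from the RefSeq table, and exon overlaps from GENCODE v29.

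Members, the 31 gene lists and the rules were chosen with earlier results of these data known. Named genes were ATF6 and ATF4; up to 12 per direction with the largest change among called genes of at least 5 CPM; up to 6 per direction for each difference of responses; up to 4 per list; and genes whose ratio was at least 1 on the log2 scale, in the same direction, in all 3 replicates, of which there were 0. 1 gene that the rule names is not reported here.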

Additional observations from a re-analysis of the deposited data

Results flagged for a closer look

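Responses at 6 h and 16 h in siATF6 cells differed by the test of the difference itself (edgeR, adjusted p under 0.05) for 1417 genes, and 11 of those with large differences are given here (6 h minus 16 h, log2).

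A less negative or more positive response at 6 h was found for SYT12 (4.05), the tight junction gene CLDN2 (3.60), FAM111B (3.48), the WNT feedback gene RNF43 (3.29) and NES (2.63). Of RNF43, 59.5% of exon bases lie in another gene on the same strand, so its reads are uncertain.

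A smaller response at 6 h was found for ADM2 (-4.38), KLHDC7B (-4.15), CHAC1 (-3.96), RAB39B (-3.86), ATF3 (-3.75) and LAMP3 (-3.47). ATF3 was at 63.4, 7.46 and 58.2 CPM in 0 mM and 23.7, 34.6 and 28.9 CPM in 25 mM at 6 h. At 16 h it averaged 96.4 ± 24.5 CPM in 0 mM and 3.09 ± 0.49 CPM in 25 mM (SD, n = 3 each). LAMP3 was under 1 CPM in all 6 libraries at 6 h.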

How the results depend on the processing

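Counts of called genes depended on which libraries estimated the spread. Over all settings run, no value of a named gene or comparison changed direction past the threshold. With all replicates, DESeq2 gave 2 calls, and leaving out any library gave 0. Without replicate 2 (225 calls), the count was 551 by DESeq2, 367 without a filter on low counts (140 of the 225 among them), 0 with the library of low depth, 18 with only the 4 libraries compared, and 24 to 94 with a further library left out. The difference between siRNAs (0 calls) was 1 by DESeq2, 34 without a filter, and 0 to 1 with a library left out. The difference between times (1417 calls) was 8 with the library of low depth, 2415 with replicate 2 kept and 698 to 1192 with a library left out. Other size factors gave counts within 1.5 times. Pseudocounts of 0.1 and 2 CPM left unchanged how many called genes were positive in each replicate.

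Same-numbered libraries at 6 h deviated together in numbers 1 and 3 (r = 0.409 and 0.544 across 11092 genes) but not in number 2 (r = 0.031), and at 16 h in all 3 (0.55, 0.545 and 0.369). Of the 6 libraries at 6 h, 5 correlated best with their own number, but for 25 mM replicate 2 the best was only r = 0.031. These correlations share libraries and are not separate observations. For numbers 1 and 3 they are a hint from the data that the libraries share more than a number. Since a correlation over 0.1 was required of every pair and number 2 at 6 h missed it, the fits described have no block. That pair is absent from the fits without replicate 2, and the siATF6 pairs left in them were all over 0.1. The pairing was left unused in those fits all the same. With a replicate block, the calls were 0 with all replicates, 497 without replicate 2, which include all 225, 0 for the difference between siRNAs and 2364 for that between times, which include all 1417. With a block by transfection they were 320 (186 of the 225 among them) and 2013 (1290 of the 1417).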

Other observations

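The levels of 3 inflammatory genes, CXCL8, CXCL1 and IL6, separated by replicate number. CXCL8, a chemokine, was at 313, 5.31 and 18 CPM in 0 mM and at 143, 20.8 and 6.27 CPM in 25 mM in siATF6 cells at 6 h, so both replicate 1 libraries stood above the other four. Across the 35 libraries, CXCL8 ran from 67.6 to 410 CPM in the 12 libraries of replicate 1 and from 1.17 to 34.0 CPM in the 23 of replicates 2 and 3. CXCL1 ran from 79.5 to 233 CPM in replicate 1, against 2.05 to 10.3 CPM in the others, and IL6 from 3.10 to 31.7 CPM, against 0 to 1.03 CPM. The ranges did not overlap for any of the 3 genes, which were picked after their values were seen. How many of all genes separate in this way was not counted. Of the 21 genes in the list of chemokines, cytokines and NF-kB genes, 18 had a positive log2 ratio in replicate 1 and 21 in replicate 3. In replicate 2 it was 3.

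The mitochondrial share of counts lay between 1.69% and 5.52% in the 6 libraries. Its part in the results was not tested.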
